A study of Homo sapiens with 6 samples.

Results

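The genes described here are 42 components of the Wnt pathway: nuclear TCF/LEF factors, β-catenin and its destruction complex, Dishevelled proteins, Frizzled and LRP receptors, the R-spondin receptors with their ubiquitin ligases, antagonists, and factors of Wnt secretion. They were chosen by gene name, and all 42 were found among the 58735 genes of the deposited table. Of the 42, 35 had at least 1 FPKM (fragments per kilobase of gene length and per library size) in at least 3 samples and entered the test with 13579 genes in all. The tested cells were AZ-521 cells given 10 µM platycodon D (PD), a saponin of the balloon flower, for 48 h (3 samples), and the controls were AZ-521 cells given DMSO, its solvent, for 48 h (3 samples). Both groups were labelled as wild type and came from this single cell line. The labels call AZ-521 a stomach cancer line, and cell banks have traced the line to a duodenal tumour. The study's stated aim was to learn how PD acts on gastric cancer cells.

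In the Wnt pathway a secreted, lipid-bearing Wnt protein binds a Frizzled receptor and the coreceptor LRP5 or LRP6. Dishevelled then restrains a complex of AXIN, APC and GSK3 that otherwise marks β-catenin for destruction, and β-catenin that reaches the nucleus binds TCF/LEF factors and switches on target genes. Several targets, among them AXIN2, RNF43, ZNRF3, NOTUM, NKD1 and DKK1, encode inhibitors of the same pathway. In the gut this signal maintains the stem cells of the crypt, and it is often overactive in intestinal tumours.

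Reads recovered over genes numbered 15328454 to 15821524 in the PD libraries and 14915538 to 16341687 in the DMSO libraries. The labels do not state whether replicates were grown apart, so the p-values cover the spread among these 6 samples and no more, and that spread may be technical. Deviations from the group means fell with transcript GC content across genes in PD replicate 3 and DMSO replicate 1 (Spearman rho = -0.50 and -0.61). They rose with it in 3 of the other libraries (0.44 to 0.59) and stood at 0.01 in PD replicate 2. PD replicate 1 (0.59) thus deviated as far as PD replicate 3, and the sign alone does not mark the odd library of a group. The fit without PD replicate 3 and DMSO replicate 1 is given where it changed the call of a member. The cells lacked the markers of the labelled tissue. The 11 stomach markers summed to 0.832 to 1.94 FPKM in PD and 0.643 to 1.14 FPKM in DMSO samples, with 6 of them at 0 in every library, and CDX2 was the 1 intestinal marker of 11 that reached the filter. Of 7 epithelial markers KRT18 and KRT19 were at 0 throughout, and the 1 that was tested, CLDN4, rose, averaging 2.68 ± 0.533 FPKM in PD and 1.06 ± 0.153 FPKM in DMSO samples (SD, n = 3 each, limma adjusted p = 0.00600). The epithelial sum was 2.67 to 3.68 FPKM in PD and 1.58 to 1.72 FPKM in DMSO samples. Most of it was CLDN4, with 3.25, 2.59 and 2.20 FPKM in PD and 0.928, 1.04 and 1.23 FPKM in DMSO samples. EPCAM, CDH1, KRT8 and CLDN7 stayed below the filter. KRT8 was lower in PD (mean 0.292 FPKM, against 0.390 FPKM in DMSO samples), and EPCAM, CDH1 and CLDN7 had overlapping groups. Of 10 mesenchymal markers 6 were tested and 3 fell, namely CDH2, FN1 and VIM (log2 fold changes -1.03, -0.61 and -0.39, limma adjusted p = 0.00162, 0.00221 and 0.0367). COL1A1, COL1A2, ZEB2 and PDGFRB stayed below the filter, and the mesenchymal sum was 168 to 185 FPKM in PD and 216 to 236 FPKM in DMSO samples. Blood and endothelial markers summed to at most 0.126 FPKM in any library. Of 6 markers of cycling cells 5 fell, and the sum of all 6 was 106 to 129 FPKM in PD and 202 to 248 FPKM in DMSO samples. The other, MCM2, had 13.2, 11.2 and 11.9 FPKM in PD and 9.30, 9.70 and 10.4 FPKM in DMSO samples. It lay higher in PD but did not pass (log2 fold change 0.28, limma adjusted p = 0.0650). Among all genes tested 12.7% fell and 14.3% rose. The part of these epithelial, mesenchymal and cycling markers in the Wnt results was not tested, and in bulk RNA fewer cells with a transcript and less of it per cell cannot be told apart.

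Platycodon D was accompanied by lower levels of 3 of the 4 nuclear factors and of several surface regulators, while most receptor and destruction complex genes did not pass the test. "Rose" and "fell" below mean an adjusted p under 0.05 in limma on log2(FPKM + 1) with Benjamini-Hochberg adjustment across the 13579 genes. Of the 35 tested members 9 fell (TCF7L2, DKK1, WLS, RNF43, DVL3, ZNRF3, LEF1, TCF7 and AMER1) and 5 rose (KREMEN2, DKK3, KREMEN1, DVL2 and FZD5), or 25.7% and 14.3% of those tested. Among all genes tested the background was 12.7% that fell and 14.3% that rose, 27.1% in either direction. DKK3 passed the filter through its PD samples alone and so had to differ, and without it 4 of 34 rose and 9 fell. A call with at least a 2-fold change on the log2(FPKM + 1) scale was reached by TCF7L2, a fall shared by 0.979% of all genes tested. In either direction 3.82% of all genes reached such a change. Of the 35 tested members, 10 had all PD samples below the DMSO samples and 6 had them all above, against 21.9% and 22.5% of all genes tested. The median log2 fold change was -0.08 over the members and 0.00 over all genes tested. The number that rose was 3 without PD replicate 1 and 2 without PD replicate 2, DMSO replicate 2 or DMSO replicate 3. In these fits, in the same order, 9.76%, 8.42%, 9.15% and 9.56% of all genes rose.

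**Figure D1:**
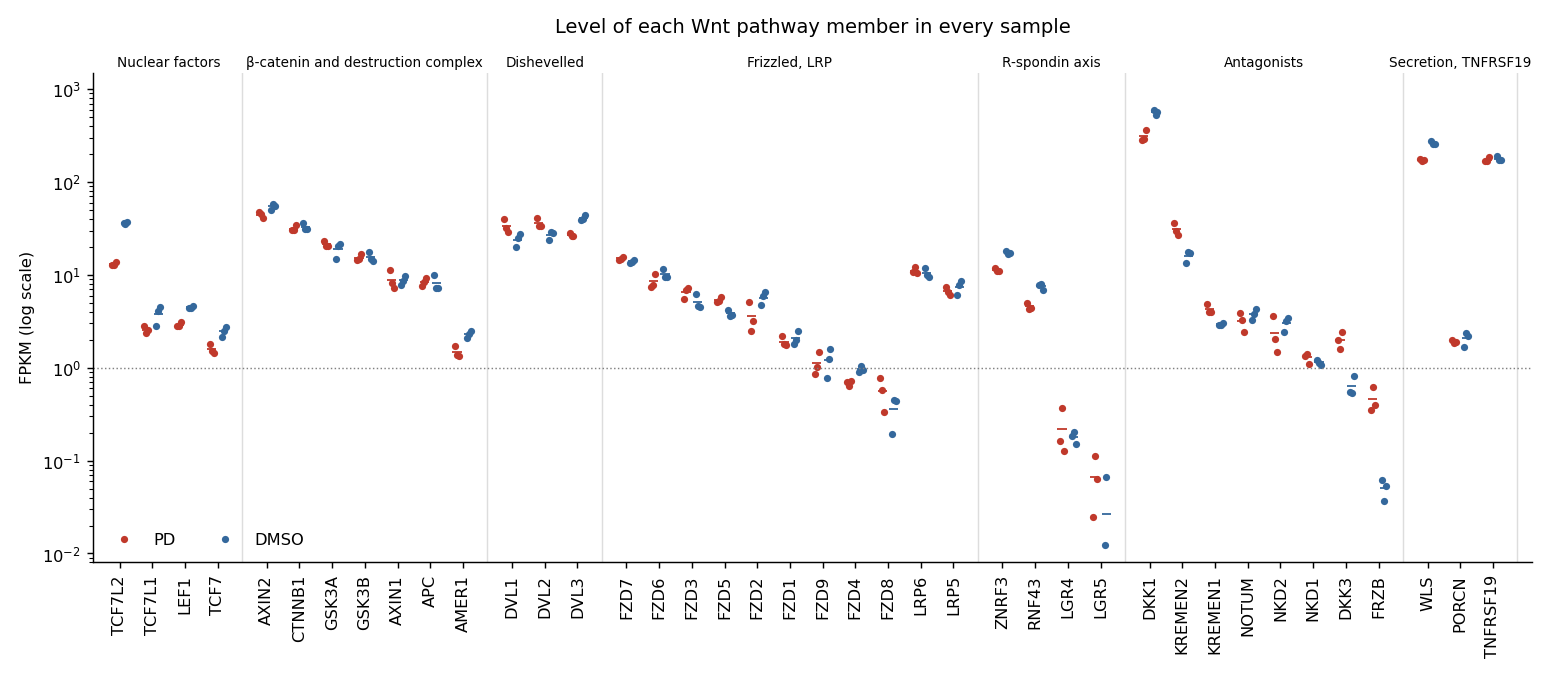
FPKM on a log axis for 40 members in each sample, with PD points left and DMSO points right of each gene name, a short line at the group mean and a dotted line at 1 FPKM. FZD10 and SFRP1 had no reads and are left out, and LGR5 in DMSO replicate 3 is at 0 and not drawn; TCF7L2, LEF1, DVL3, RNF43, ZNRF3, DKK1 and WLS show the PD points below the DMSO points with a clear gap.

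TCF7L2, the TCF factor that predominates in gut epithelium, showed the deepest fall of the family. Its gene (ENSG00000148737, chromosome 10, 112950250 to 113167678 on the plus strand, GRCh38) had 12.8, 12.9 and 13.8 FPKM in PD replicates 1 to 3, against 35.8, 35.7 and 37.4 FPKM in DMSO replicates 1 to 3. The groups were far apart and each was tight, with PD at 0.363 times the DMSO mean and a log2 fold change of -1.39 ± 0.08 (SE, limma adjusted p = 8.36e-05). By size of fall it ranked 28 of 13579 genes, and it passed in each of the 17 alternative settings, with log2 fold changes between -1.51 and -1.37. LEF1, which binds the same DNA motif and mostly activates with β-catenin, had 2.81, 2.84 and 3.07 FPKM in PD and 4.41, 4.41 and 4.597 FPKM in DMSO samples. These groups did not overlap either, and its log2 fold change of -0.49 ± 0.09 (limma adjusted p = 0.00721) held in each of the 16 settings in which it was tested.

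TCF7, which also occurs as a shorter form that cannot bind β-catenin, had 1.81, 1.52 and 1.46 FPKM in PD and 2.12, 2.52 and 2.78 FPKM in DMSO samples. It fell by 0.42 on the log2 scale (limma adjusted p = 0.0389) with separate groups. The call was lost without PD replicates 1 to 3 (adjusted p = 0.0578, 0.115 and 0.0803 in limma) and without DMSO replicates 2 and 3 (0.113 and 0.135), and with no filter (0.102). TCF7 overlaps SKP1 on the other strand, and SKP1 had the larger number of reads, so its low level is uncertain where counting ignored strand. TCF7L1, mainly a repressor, had 2.83, 2.39 and 2.52 FPKM in PD and 2.83, 4.12 and 4.52 FPKM in DMSO samples, where DMSO replicate 1 lay at the PD level. Its log2 fold change of -0.41 did not pass (limma adjusted p = 0.0797, 95% interval -0.77 to -0.06), but it was -0.57 without DMSO replicate 1 (adjusted p = 0.0139 in limma) and -0.56 without PD replicate 3 and DMSO replicate 1 (0.0178). TCF7L1 also passed with voom (0.0408), with array weights (0.00342) and after GC correction (adjusted p = 0.0265 in limma).

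FPKM is a level per gene length, and on this scale the 4 factors were summed. The deposited length is a single value per gene, from 4414 bases for TCF7L1 to 10063 bases for TCF7. It need not be that of the transcripts expressed, so the sums and shares depend on it. The same holds where levels of different genes are compared below. The sum was 20.3 ± 0.610 FPKM in PD and 47.1 ± 2.04 FPKM in DMSO samples (SD, n = 3 each), or 0.431 times as much. TCF7L2 held 63.3%, 65.6% and 66.2% of it in PD and 79.3%, 76.4% and 75.9% in DMSO samples, so its lead narrowed while it stayed the most abundant factor in each sample. LEF1 held 14.3 ± 0.461% in PD and 9.51 ± 0.221% in DMSO samples, and TCF7L1 held 12.7 ± 1.06% in PD and 8.08 ± 1.58% in DMSO samples. The share of TCF7 was 7.87 ± 0.962% in PD and 5.24 ± 0.487% in DMSO samples, a difference of 2.63 percentage points with separate groups. The exact two-sided permutation test gave p = 0.1, the smallest that 3 samples against 3 allow. A share rises where a gene is lowered less than the sum. TCF7, LEF1 and TCF7L1 stood at 0.645, 0.650 and 0.675 times their DMSO means, and the sum, mostly TCF7L2, at 0.431 times. Their higher shares in PD are therefore no rise in level.

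The promoters printed here belong to some of the genes that fell. They are shown because TCF/LEF factors are known to act on Wnt target promoters. TCF7, WLS, DVL3 and AMER1 also fell and have RefSeq promoters that are not printed. The RefSeq table (GRCh38.p14) held 35 promoters for 27 of the 42 members, each running from 250 bases before to 50 bases after an annotated start. For genes with several starts the first listed one is printed. The LEF1 start used here lies inside the gene, whose upstream end is at 108168956 on the minus strand. No other LEF1 window was listed, so the sequence at that end was not searched. The core motif of TCF/LEF factors was searched as CTTTGAA and CTTTGAT on both strands, and a match is in capitals.
TCF7L2, chr10:112949997-112950296, plus strand: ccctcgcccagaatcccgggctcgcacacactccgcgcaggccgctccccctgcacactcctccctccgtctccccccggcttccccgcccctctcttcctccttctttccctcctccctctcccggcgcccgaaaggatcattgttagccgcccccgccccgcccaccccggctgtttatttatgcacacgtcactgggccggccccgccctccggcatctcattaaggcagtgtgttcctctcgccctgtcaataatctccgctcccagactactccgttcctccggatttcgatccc
LEF1, chr4:108166252-108166551, minus strand: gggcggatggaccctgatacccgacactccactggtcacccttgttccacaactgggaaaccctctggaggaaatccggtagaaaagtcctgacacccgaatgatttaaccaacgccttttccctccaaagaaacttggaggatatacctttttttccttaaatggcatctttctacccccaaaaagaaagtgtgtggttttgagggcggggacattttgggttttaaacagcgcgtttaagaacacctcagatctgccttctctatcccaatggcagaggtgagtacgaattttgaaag
RNF43, chr17:58417485-58417784, minus strand: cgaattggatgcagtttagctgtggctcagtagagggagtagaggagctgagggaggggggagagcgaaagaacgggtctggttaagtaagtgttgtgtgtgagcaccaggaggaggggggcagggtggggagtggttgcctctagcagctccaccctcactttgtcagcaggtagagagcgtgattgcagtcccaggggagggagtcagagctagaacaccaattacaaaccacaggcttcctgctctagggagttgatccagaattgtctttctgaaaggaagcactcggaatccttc
DKK1, chr10:52314031-52314330, plus strand: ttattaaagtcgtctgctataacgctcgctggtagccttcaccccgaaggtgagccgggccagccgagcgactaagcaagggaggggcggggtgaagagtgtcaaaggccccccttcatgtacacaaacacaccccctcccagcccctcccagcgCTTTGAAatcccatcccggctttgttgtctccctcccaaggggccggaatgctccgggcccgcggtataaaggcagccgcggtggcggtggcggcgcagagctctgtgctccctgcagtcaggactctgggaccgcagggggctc
A single match stood among the 35 windows, CTTTGAA in the DKK1 promoter, 95 to 89 bases before the start. The printed windows were chosen and include it, so they do not show how common matches were. A match stood in 6.86% of all 35116 promoters listed there, against 1 of 35 (2.86%) among the members. The capitals describe letters and do not show that a factor binds there.

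β-catenin and most of its destruction complex differed by less than the spread between samples. CTNNB1, which encodes β-catenin, had 30.4, 30.1 and 34.1 FPKM in PD and 36.4, 30.9 and 31.4 FPKM in DMSO samples. The groups overlapped, and the 95% interval of the log2 fold change ran from -0.29 to 0.18 (limma adjusted p = 0.708). The scaffold APC had 8.44 ± 0.768 FPKM in PD and 8.09 ± 1.58 FPKM in DMSO samples, with an interval of -0.25 to 0.38. AXIN1, the limiting scaffold of the complex, had 8.90 ± 2.07 and 8.72 ± 1.054 FPKM, again PD and then DMSO, with an interval of -0.36 to 0.38. The kinase genes GSK3A and GSK3B summed to 36.6 ± 1.31 FPKM in PD and 34.4 ± 1.81 FPKM in DMSO samples, and neither passed (limma adjusted p = 0.381 and 0.915). The direction of APC, AXIN1 and GSK3B turned with the scaling or with a library left out, and that of CTNNB1 without DMSO replicate 1 (log2 fold change 0.02).

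AXIN2, the inducible AXIN and a widely used readout of Wnt activity, had 47.7, 45.2 and 41.0 FPKM in PD and 50.4, 57.6 and 55.8 FPKM in DMSO samples. All PD values lay below all DMSO values, but the log2 fold change of -0.29 ± 0.10 did not pass (limma adjusted p = 0.0642, 95% interval -0.51 to -0.06). It passed without DMSO replicate 1 (-0.34, adjusted p = 0.0442 in limma), without PD replicate 3 and DMSO replicate 1 (-0.28, 0.0327), under equal totals, quantile scaling, voom and array weights, and after GC correction (-0.33, 0.00347). Its range over the 17 settings was 0.00347 to 0.198. AMER1, an APC-binding scaffold of the complex, fell with 1.73, 1.38 and 1.33 FPKM in PD and 2.07, 2.28 and 2.50 FPKM in DMSO samples (log2 fold change -0.41, limma adjusted p = 0.0398). This call was lost without PD replicate 2 or 3 (adjusted p = 0.121 and 0.0821 in limma), without DMSO replicate 2 or 3 (0.110 and 0.136), without PD replicate 3 and DMSO replicate 1 (0.0576), and with no filter (0.104).

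The Dishevelled genes, whose products relay the signal from Frizzled to the destruction complex, shifted against each other. DVL3 fell to 28.6, 26.0 and 26.4 FPKM in PD, against 39.4, 39.8 and 44.6 FPKM in DMSO samples (log2 fold change -0.59 ± 0.09, limma adjusted p = 0.00391), and passed in each of the 17 settings. DVL2 had 41.2, 33.5 and 33.8 FPKM in PD and 24.0, 29.2 and 28.5 FPKM in DMSO samples. It rose by 0.39 ± 0.12 on the log2 scale (limma adjusted p = 0.0458), with PD above DMSO throughout but with a narrow gap. The rise was lost in each fit that left out 1 library (adjusted p = 0.130, 0.0839 and 0.0572 in limma without PD replicates 1 to 3, and 0.0915, 0.0772 and 0.0900 without DMSO replicates 1 to 3), without PD replicate 3 and DMSO replicate 1 (0.0619) under each other scaling (0.0636 to 0.165) and with no filter (0.101). DVL1 had 40.3, 32.2 and 29.02 FPKM in PD and 19.8, 24.8 and 27.4 FPKM in DMSO samples, a log2 fold change of 0.48 that did not pass (limma adjusted p = 0.0603). It passed without PD replicate 3 (0.58, adjusted p = 0.0464 in limma), without PD replicate 3 and DMSO replicate 1 (0.45, 0.0445) and after GC correction (0.48, 0.00236). DVL1 also passed where genes needed a mean of 5 FPKM (limma adjusted p = 0.0470), with voom (0.0259) and with array weights (0.0223).

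The summed level of the 3 Dishevelled genes was 97.0 ± 11.3 FPKM in PD and 92.5 ± 8.75 FPKM in DMSO samples (SD, n = 3 each), a difference within the spread. Its makeup was not alike. DVL3 held 26.0%, 28.4% and 29.6% in PD and 47.3%, 42.4% and 44.4% in DMSO samples, so that it was the least abundant of the 3 in each PD sample and the most abundant in each DMSO sample. DVL1 held 34.7 ± 2.07% in PD and 25.8 ± 1.79% in DMSO samples, and DVL2 held 37.3 ± 0.699% in PD and 29.5 ± 1.48% in DMSO samples. A share within a sample does not move with the scaling between samples. DVL1 and DVL2 transcripts have a GC content of 65.6% and 59.3%, against 59.2% for DVL3, and the part of GC content in the DVL1 values was not tested beyond the corrected fit.

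**Figure D2:**
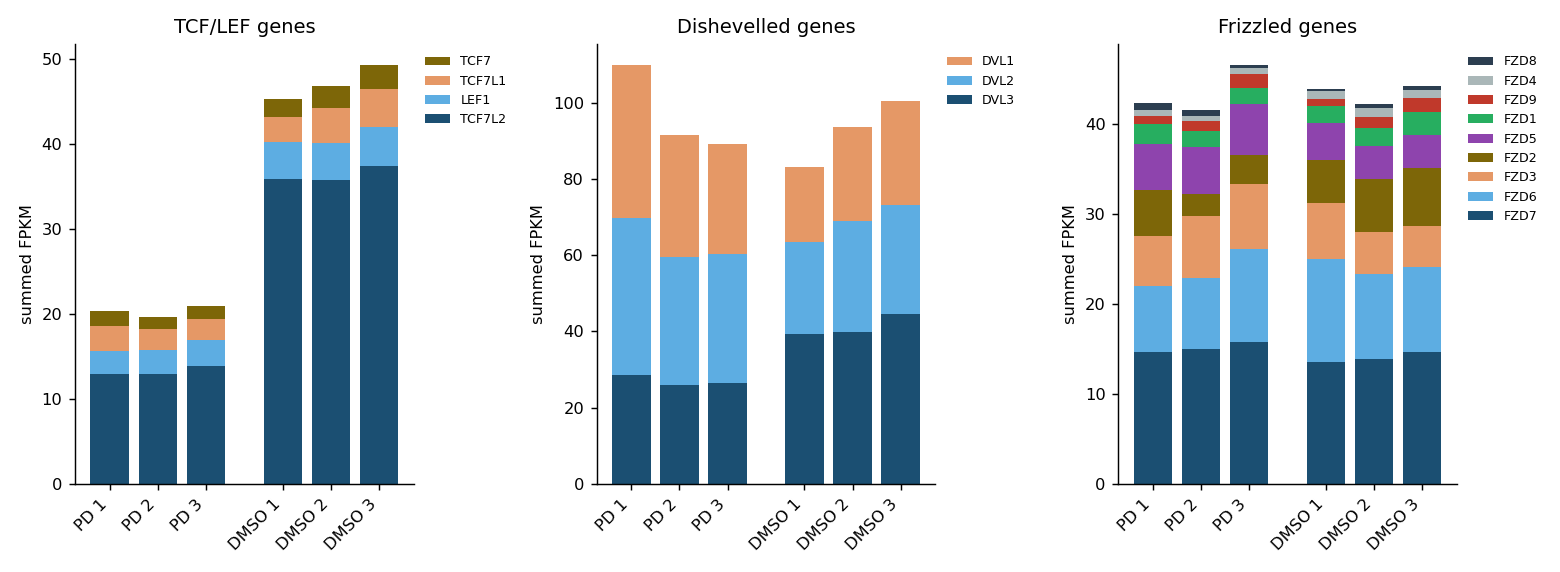
Stacked bars of FPKM per sample for the TCF/LEF, Dishevelled and Frizzled genes, PD samples left and DMSO samples right, each colour a gene. The TCF/LEF bars total 20.3 FPKM on average in PD and 47.1 FPKM in DMSO samples, the Dishevelled bars keep a similar height with a smaller DVL3 segment in PD, and the Frizzled bars keep their height.

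Frizzled receptors, the seven-pass proteins that bind Wnt, kept their combined level. The 10 genes summed to 42.4, 41.5 and 46.6 FPKM in PD and 43.8, 42.3 and 44.3 FPKM in DMSO samples. FZD7 was the most abundant in all 6 samples, with 14.6, 15.0 and 15.8 FPKM in PD and 13.5, 13.9 and 14.6 FPKM in DMSO samples, and it did not pass (log2 fold change 0.10, limma adjusted p = 0.378). FZD5 had 5.12, 5.21 and 5.73 FPKM in PD and 4.20, 3.64 and 3.73 FPKM in DMSO samples and was the member of the family that rose (0.39 ± 0.09, limma adjusted p = 0.0216), with separate groups. Its call was lost without PD replicate 2 (adjusted p = 0.0655 in limma) and without DMSO replicate 2 or 3 (0.0848 and 0.0789).

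FZD6 averaged 8.54 ± 1.57 FPKM in PD and 10.1 ± 1.16 FPKM in DMSO samples and did not pass (limma adjusted p = 0.257), though it did without PD replicate 3 and DMSO replicate 1 (log2 fold change -0.28, 0.0402). FZD3, which acts in planar polarity and axon guidance, averaged 6.57 ± 0.906 and 5.15 ± 1.00 FPKM in PD and DMSO samples and passed without DMSO replicate 1 (0.43, adjusted p = 0.0472 in limma) but not in the main comparison (0.30, 0.162). FZD3 also passed with array weights (0.0102) and after GC correction (adjusted p = 0.00854 in limma). FZD2 averaged 3.61 ± 1.38 FPKM in PD and 5.70 ± 0.922 FPKM in DMSO samples. Its PD replicate 1, at 5.15 FPKM, lay among the DMSO values, and the log2 fold change of -0.57 (limma adjusted p = 0.0861) became -0.80 without that library (0.0214). FZD2 also passed with voom (0.0393), with array weights (0.00858) and after GC correction (adjusted p = 0.0252 in limma). FZD1 and FZD9 stayed near 2 and 1 FPKM with overlapping groups (limma adjusted p = 0.656 and 0.879).

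FZD4 and FZD8 stayed below the filter, with 73 to 80 reads per PD library and 103 to 132 per DMSO library for FZD4, and 20 to 48 and 12 to 31 reads for FZD8. FZD10 had 0 reads in every library, where 3 reads, the limit that a count of 0 allows, would be at most 0.0610 FPKM. Such limits cover counting error only. The coreceptors LRP5 and LRP6, which take part in the Wnt receptor complex, summed to 17.8 ± 1.12 FPKM in PD and 17.99 ± 0.208 FPKM in DMSO samples. Neither passed, with 95% intervals of the log2 fold change from -0.44 to 0.18 for LRP5 and from -0.18 to 0.33 for LRP6.

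The ubiquitin ligases ZNRF3 and RNF43, which remove Frizzled from the cell surface, fell together. ZNRF3 (ENSG00000183579, chromosome 22, 28883592 to 29057487, plus strand) had 11.9, 10.99 and 10.9 FPKM in PD and 18.01, 16.8 and 17.3 FPKM in DMSO samples, a log2 fold change of -0.58 ± 0.08 (limma adjusted p = 0.00288). RNF43 (ENSG00000108375, chromosome 17, 58352500 to 58417595, minus strand) had 5.04, 4.32 and 4.45 FPKM in PD and 7.70, 7.89 and 6.94 FPKM in DMSO samples, a log2 fold change of -0.60 ± 0.09 (limma adjusted p = 0.00458). In both genes the groups were apart, and both passed in each of the 17 settings. PD stood at 0.649 times the DMSO mean for ZNRF3 and at 0.613 times for RNF43. Their sum was 15.9 ± 0.929 FPKM in PD and 24.9 ± 0.756 FPKM in DMSO samples, and ZNRF3 held 71.0 ± 0.755% and 69.8 ± 1.67% of it. The R-spondin receptors that restrain these ligases were hardly expressed. LGR4 had 12 to 36 reads per PD library and 17 to 22 per DMSO library. LGR5, a marker of intestinal stem cells, had 2 to 9 reads and 0 to 6 reads. R-spondins themselves were also low, and none of RSPO1 to RSPO4 reached the filter.

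DKK1, a secreted protein that blocks LRP6, was the most abundant member and ranked 33 of all genes by mean FPKM. The gene (ENSG00000107984, chromosome 10, 52314296 to 52318042, plus strand) had 287, 288 and 362 FPKM in PD and 602, 534 and 566 FPKM in DMSO samples. PD replicate 3 was the highest of its group and still far below the lowest DMSO sample, with PD at 0.551 times the DMSO mean. The log2 fold change was -0.87 ± 0.12 (limma adjusted p = 0.00304), and DKK1 passed in each of the 17 settings, with -1.44 under quantile scaling. KREMEN2 and KREMEN1 encode the surface receptors through which DKK1 removes LRP6, and both rose. KREMEN2 (ENSG00000131650, chromosome 16, 2963944 to 2968383, plus strand) had 35.9, 30.0 and 27.2 FPKM in PD and 13.4, 17.6 and 17.4 FPKM in DMSO samples, 1.93 times the DMSO mean (log2 fold change 0.90 ± 0.14, limma adjusted p = 0.00457), and it passed in each of the 17 settings. KREMEN2 overlaps PKMYT1 on the other strand, which had fewer reads and a lower mean in PD (3.77 FPKM) than in DMSO samples (6.60 FPKM). KREMEN1 had 4.87, 3.97 and 3.998 FPKM in PD and 2.86, 2.88 and 3.07 FPKM in DMSO samples (0.42 ± 0.10, limma adjusted p = 0.0229). Its rise was lost with equal totals (0.0631), with no filter (0.0579), without PD replicate 1 or 2 (adjusted p = 0.0681 and 0.0520 in limma) and without DMSO replicate 2 or 3 (0.0770 and 0.0606).

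DKK3, a divergent member of the Dickkopf family, had 2.01, 1.61 and 2.40 FPKM in PD and 0.553, 0.533 and 0.806 FPKM in DMSO samples, 3.18 times the DMSO mean. The log2 fold change was 0.88 ± 0.15 on the log2(FPKM + 1) scale and 1.53 with a pseudocount of 0.1. Since DKK3 entered the test through its PD samples, its call is no independent sign of a difference. FRZB, a secreted decoy that binds Wnt, stayed below the filter with 17, 30 and 19 reads in PD replicates 1 to 3 and 3, 2 and 3 reads in DMSO replicates 1 to 3. The groups did not overlap, but these are few reads, and FRZB was tested in the fit with no filter alone (limma adjusted p = 0.0276). SFRP1, another secreted Frizzled-related protein, had 0 reads in every library, which allows at most 0.0420 FPKM. The feedback inhibitors NKD1 and NKD2, which bind Dishevelled, and NOTUM, which strips the lipid from Wnt, did not pass (limma adjusted p = 0.585, 0.366 and 0.389). NOTUM averaged 3.21 ± 0.740 FPKM in PD and 3.78 ± 0.491 FPKM in DMSO samples, NKD2 averaged 2.36 ± 1.08 and 3.02 ± 0.509 FPKM, and NKD1 averaged 1.29 ± 0.159 and 1.14 ± 0.0781 FPKM, each with overlapping groups.

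WLS carries lipid-bearing Wnt proteins to the cell surface and, by the mean over all 6 samples, was the second most abundant member, though in PD samples it and TNFRSF19 stood at a like level (both 173 FPKM on average). The gene (ENSG00000116729, chromosome 1, 68098473 to 68233120, minus strand) had 177, 169 and 173 FPKM in PD and 279, 257 and 256 FPKM in DMSO samples. The PD samples lay close together and well below the DMSO samples, with a log2 fold change of -0.61 ± 0.09 (limma adjusted p = 0.00300) that passed in each of the 17 settings. PORCN, the enzyme that adds the lipid, was near 2 FPKM in both groups (1.90 ± 0.0660 FPKM in PD and 2.09 ± 0.381 FPKM in DMSO samples, limma adjusted p = 0.636). TNFRSF19, a receptor of the tumour necrosis factor family and a Wnt target in the crypt, had 167, 167 and 185 FPKM in PD and 191, 172 and 172 FPKM in DMSO samples. Its groups overlapped (95% interval of the log2 fold change -0.26 to 0.17), though it passed under quantile scaling (-0.29, limma adjusted p = 0.0172).

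**Figure D3:**
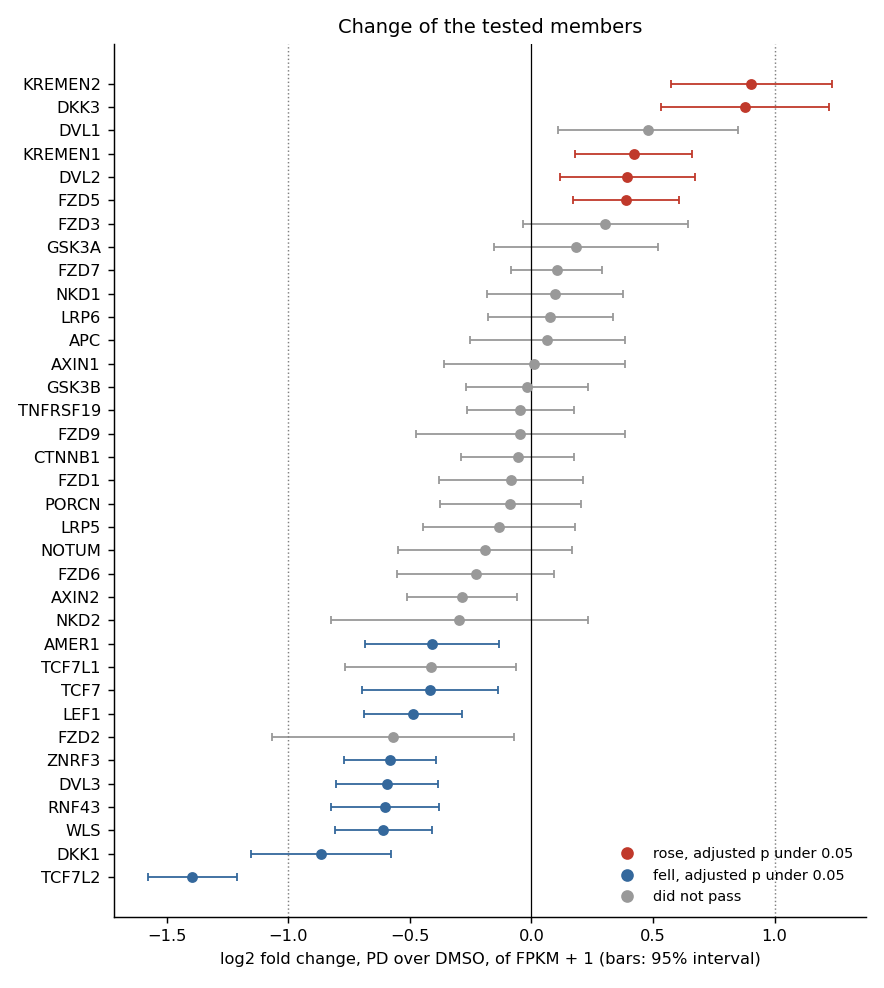
Log2 fold change of FPKM + 1, PD over DMSO, for the 35 tested members, with bars for the 95% interval and dotted lines at a 2-fold change in each direction. TCF7L2 stands alone beyond the lower line at -1.39, DKK1 follows at -0.87, and KREMEN2 at 0.90 and DKK3 at 0.88 lead the 5 members that rose.

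The members that rose had a median transcript GC content of 56.5% and those that fell of 51.3%, against 51.5% and 49.2% for all genes that rose and fell. The members that did not pass had a median of 56.6%, close to that of the members that rose, against 48.7% for all genes that did not pass. After correction for GC content 12 members fell and 7 rose, where 19.3% of all genes fell and 20.6% rose. With PD replicate 3 and DMSO replicate 1 both left out, the falls numbered 11 and the rises 5, where 15.9% of all genes fell and 17.7% rose. PD replicate 1 held the highest value of its group in 20 of the 35 tested members, and DMSO replicate 1 held the lowest of its group in 19. ZNRF3 and KREMEN1 lie near each other on the plus strand of chromosome 22, where KREMEN1 begins at 29073078, and they moved in opposite directions.

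Other genes of the pathway were taken from 7 lists. Of 19 WNT ligand genes 3 were tested. WNT9A rose to 15.2, 14.2 and 16.1 FPKM in PD, against 5.85, 5.35 and 5.24 FPKM in DMSO samples (log2 fold change 1.32 ± 0.09, limma adjusted p = 0.000196), a clear separation. WNT10B fell, averaging 2.94 ± 0.169 FPKM in PD and 4.35 ± 0.229 FPKM in DMSO samples (-0.44, limma adjusted p = 0.0121). WNT10B missed the threshold without PD replicate 2 (adjusted p = 0.0521 in limma) and without DMSO replicate 2 or 3 (0.0507 and 0.0555). WNT3 stood at 5.51 and 5.45 FPKM in PD and DMSO samples.

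Among 13 tested coreceptor and planar polarity genes 5 fell and 0 rose, against 12.7% and 14.3% of all genes tested. In this list 7 had an unadjusted p under 0.05, a threshold for which no share of all genes is given here. Voom also passed 7, where 15.8% of all genes rose and 15.4% fell with voom. LRP4, an LRP family receptor bound by sclerostin, had 8.17, 7.59 and 6.86 FPKM in PD and 17.5, 17.4 and 17.8 FPKM in DMSO samples (-1.13 ± 0.09, limma adjusted p = 0.000341). The glypicans GPC4 and GPC3, surface proteoglycans that hold Wnt, fell by 0.80 and 0.69 on the log2 scale (limma adjusted p = 0.00130 and 0.0134). ADGRA2, a partner of RECK in WNT7 signalling, fell by 0.61 (limma adjusted p = 0.0486), a call lost without PD replicates 2 and 3 (0.129 and 0.104) and DMSO replicates 2 and 3 (0.127 and 0.144), with no filter (0.135) and with a pseudocount of 0.1 (0.0514).

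Among 9 other tested antagonists 3 fell and 2 rose, against 12.7% and 14.3% of all genes tested. DACT1 and WFIKKN1 entered the test through 1 group alone and had to differ, and of the other 7 antagonists 2 fell and 1 rose. DACT1, which binds Dishevelled, averaged 0.449 ± 0.0876 FPKM in PD and 1.65 ± 0.205 FPKM in DMSO samples. DKK2 averaged 2.21 ± 0.825 and 4.33 ± 0.892 FPKM in PD and DMSO samples (-0.75, limma adjusted p = 0.0304), and its call was lost without PD replicates 1 and 2 (0.0881 and 0.101) and without DMSO replicates 1 to 3 (0.0697, 0.0621 and 0.0537), and with no filter (0.0958). SOSTDC1, an antagonist of BMP and Wnt, had the deepest fall of this list (-2.44, limma adjusted p = 6.3e-05), and WFIKKN1, a secreted binder of TGF-β family factors, averaged 1.61 ± 0.378 FPKM in PD and 0.393 ± 0.112 FPKM in DMSO samples.

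Of 21 other destruction complex and kinase genes 0 passed in limma, against 27.1% of all genes tested. In this list 4 had an unadjusted p under 0.05, again with no share of all genes given. Voom passed 1, where 15.8% of all genes rose and 15.4% fell with voom. The list's median log2 fold change was 0.02, and CSNK1A1, the kinase that primes β-catenin, stood at 25.4 and 25.5 FPKM in PD and DMSO samples. Of 26 cofactors and corepressors 3 rose and 2 fell, against 14.3% and 12.7% of all genes tested. BCL9L, which links β-catenin to Pygopus, rose to 23.0, 21.9 and 16.3 FPKM in PD, against 7.64, 11.2 and 10.8 FPKM in DMSO samples (0.98 ± 0.18, limma adjusted p = 0.00750). CTNNBIP1, which blocks the binding of β-catenin to TCF, fell by 0.67 (limma adjusted p = 0.00469), and the repressor HBP1 rose by 0.58 (0.0106). JUP, which encodes plakoglobin, fell by 0.49 (limma adjusted p = 0.0314) but not with no filter (0.0804), nor without PD replicates 1 to 3 (0.0579, 0.102 and 0.0699) or DMSO replicates 2 and 3 (0.101 and 0.103).

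Wnt target genes outside the 42 members went both ways. Of 18 tested 6 fell and 3 rose, against 12.7% and 14.3% of all genes tested, with a list median of -0.23. SP5, a transcription factor that responds directly to Wnt, fell to 9.86, 8.12 and 7.71 FPKM in PD, against 18.1, 22.7 and 23.8 FPKM in DMSO samples (log2 fold change -1.23 ± 0.13, limma adjusted p = 0.00119). BIRC5, an inhibitor of apoptosis that is also a gene of dividing cells, fell by 0.99 on the log2 scale (limma adjusted p = 0.00151), beside the cycling markers given above. The rest that fell were FGF18, FGF9, FGF20 and TIAM1 (log2 fold changes -0.54, -0.49, -0.47 and -0.46, limma adjusted p = 0.0164, 0.0133, 0.0282 and 0.00600). FGF18 and FGF20 missed the threshold with no filter (limma adjusted p = 0.0534 and 0.0712). JUN and FOSL1, subunits of the AP-1 factor with many other inputs, rose by 1.15 and 0.93 (limma adjusted p = 0.000895 and 0.0133), and FOSL1 missed the threshold with no filter (0.0512). MYC also rose, with 260, 233 and 251 FPKM in PD and 122, 148 and 157 FPKM in DMSO samples (0.80, limma adjusted p = 0.00354).

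**Figure D4:**
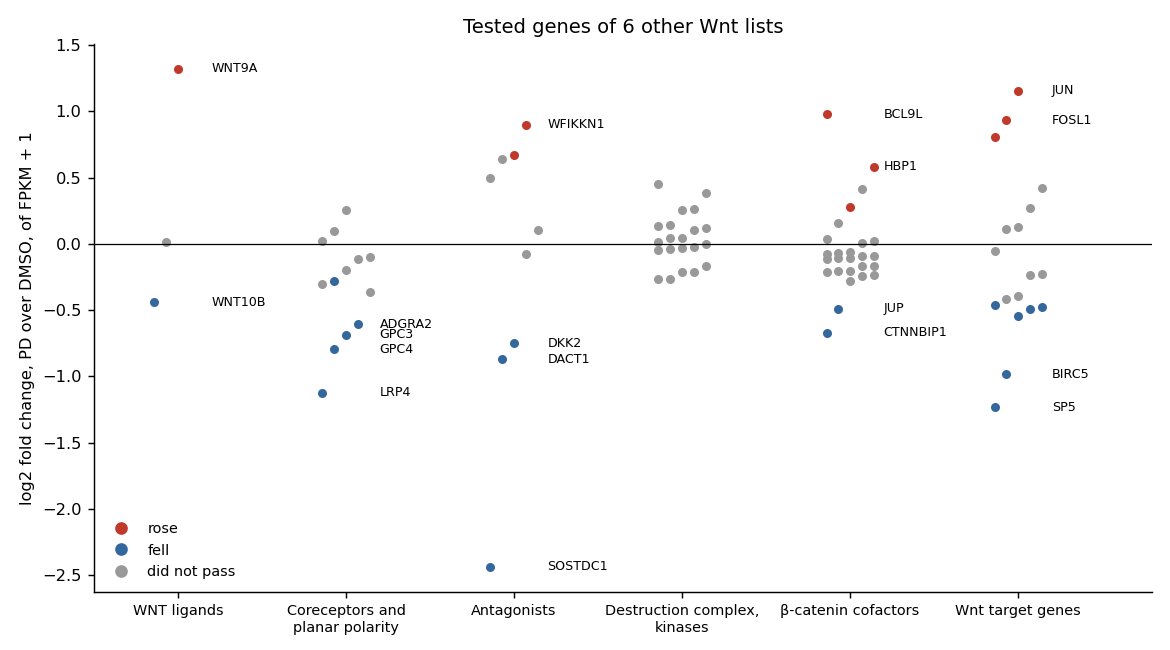
Log2 fold change of FPKM + 1, PD over DMSO, for each tested gene of 6 other Wnt lists, coloured by the test, with names beside the genes described. SOSTDC1 at -2.44, SP5 at -1.23 and LRP4 at -1.13 lie lowest, WNT9A at 1.32 and JUN at 1.15 lie highest, and the destruction complex column holds no gene past the test.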

How the data were processed

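Messenger RNA of AZ-521 cells was sequenced with a stranded kit on a HiSeq machine, per the labels' protocols, in 3 PD and 3 DMSO samples. The authors deposited one table of FPKM values with gene lengths. The sources used here give neither the aligner nor the counting program, nor whether strand was used. GRCm38 and mm10, both mouse builds, stand in the submitters' processing notes, but all 58735 gene identifiers are in GENCODE release 29 (GRCh38), and the 42 members have its coordinates. Columns were matched to samples by group prefix and the number that closes each title. FPKM times gene length was a whole multiple of 1 step per sample for 100% of values above 0 (tolerance 0.01), which gave reads per gene. The deposited scaling implied totals of 0.947 to 1.00 times the gene totals in PD and 1.03 to 1.10 times in DMSO samples, and equal totals move the median log2 fold change of all genes by -0.10.

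Values were analysed as log2(FPKM + 1), which understates changes of low genes, with limma 3.58.1 under R 4.3.3 (two-sided, a trend of variance on mean, no covariate, Benjamini-Hochberg) on 13579 genes. Alternatives varied the pseudocount, filter, scaling, model (voom on recovered reads), replicate block, weights and samples; GC correction by lowess (span 0.3) was chosen after seeing the data. Members and lists were chosen with earlier results of these data known. All members are named, and of each other list up to 4 genes past the test with the largest change. Markers were named beside them, and so were WNT3, CSNK1A1, MYC, FGF18, FGF9, FGF20 and TIAM1. All of these were picked after their values were seen. No per-sample column was left out.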

Additional observations from a re-analysis of the deposited data

How the results depend on the processing

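TCF7L2, LEF1, DVL3, RNF43, ZNRF3, DKK1, WLS and KREMEN2 kept direction and call in each alternative in which they were tested. DKK3 did too, but it entered the test through its PD samples alone, so this says nothing about its stability. The number of members that rose was 5, and 3 at a minimum mean of 5 FPKM, 3 with equal totals and 2 with the replicate block. The shares of all genes that rose in these fits were 14.3%, 17%, 10.2% and 8.02%. Fewer members were tested at the minimum mean of 5 FPKM. Without 1 replicate 2 to 5 members rose and 7 to 11 fell, around 9 in the main fit. Of all genes 8.42% to 13.8% rose and 6.33% to 12.2% fell without 1 replicate. Genes past the threshold numbered 3678, and 2214 at a minimum mean of 5 FPKM, 6301 with array weights, 1844 with the replicate block and 2003 to 3534 without 1 replicate. The cause was not tested, except that the stricter filter tests fewer genes and a left-out replicate leaves fewer samples.

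With the replicate block 5 members lost their call (TCF7, DVL2, FZD5, KREMEN1 and AMER1, adjusted p = 0.119, 0.136, 0.0907, 0.0855 and 0.120 in limma). Deviations of same-numbered samples correlated at -0.39, 0.17 and -0.16. They cannot show whether the numbers pair the samples, since deviations from a shared group mean depend on each other. They also followed GC content in all libraries but PD replicate 2. The labels do not say whether a number marks a shared culture or day. Members that never passed in the main comparison turned sign. With equal totals these were APC (-0.045), AXIN1 (-0.099), FZD7 (-0.012) and LRP6 (-0.034). AXIN1 stood at -0.013 under upper quartile scaling and at -0.056 with array weights. GSK3B stood at 0.0063 with array weights, at 0.0066 in the GC-corrected fit and at 0.0050 when PD replicate 3 and DMSO replicate 1 were both left out. Without 1 replicate CTNNB1 ranged from -0.11 to 0.017, APC from -0.0070 to 0.20, AXIN1 from -0.15 to 0.13, GSK3B from -0.080 to 0.065, FZD1 from -0.15 to 0.0034, FZD9 from -0.19 to 0.075 and TNFRSF19 from -0.093 to 0.0048. The difference in the share of TCF7 was 2.63 percentage points, and 2.12 to 3.08 without 1 replicate. Few reads stand behind FZD8, LGR4, LGR5 and FRZB, which limits what their levels can show at this depth.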
